A study of Homo sapiens with 6 samples.

Results

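The genes described here are 10 genes of the Notch pathway measured in Stage 6 cells derived from human embryonic stem cells (hESCs). They comprise the receptors NOTCH1, NOTCH2 and NOTCH3, the ligands DLL1, DLL4 and JAG1, the atypical ligand DNER, the target genes HES1 and HEY1, and HES6, a relative of HES1 that works against it. They were taken by gene symbol from the normalized array table, which holds 31410 symbols with 1 value per array, and all 10 matched a current RefSeq symbol. RNA was measured on 6 Illumina HT-12 arrays, which read mRNA of whole cultures. H1 and HUES8 are established hESC lines, and a stepwise pancreatic protocol had taken them to its last stage, Stage 6, at which insulin-expressing cells are present. H1 was differentiated in 2 separate runs, called culture 1 and culture 2 here, and HUES8 in 1 run, culture 3. Each culture gave a live sample, fresh unsorted cells whose RNA was purified on columns, and a processed one. The processed sample was fixed in paraformaldehyde, permeabilized, antibody stained, run through the sorter with every cell kept, and extracted with a kit for fixed material. HUES8 is thus represented by a lone culture, and the line cannot be told apart from that culture. Neither sample type was enriched for insulin-expressing cells.

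Notch receptors are membrane proteins that are switched on by ligands on a neighbouring cell. Ligand binding lets ADAM proteases and then γ-secretase cut the receptor, and the freed intracellular domain enters the nucleus, joins the DNA-binding protein RBPJ and switches on genes of the HES and HEY families, which encode transcriptional repressors. In the developing mouse pancreas this signal keeps progenitors from becoming endocrine, because HES1 represses Neurog3, the gene that starts the endocrine programme, and cells with high NEUROG3 in turn present Delta ligands to their neighbours. The same pathway maintains neural progenitors and acts in endothelium and vascular smooth muscle.

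The arrays were close to each other in overall level, with median intensities from 22.5 to 27.4, and 12297 to 12698 genes stood at 40 or above on each. Pancreatic endocrine markers were present, and 7 of 8, INS, GCG and SST among them, reached 40 on every array. Summed intensities of 8 pancreatic progenitor and duct markers were 7410 to 7942 in culture 1, 6156 to 6248 in culture 2 and 3781 to 3790 in culture 3. Of these, NKX6-1 lay below 40 on every array. Markers of other cells were also present. Sums of 8 hepatic and gut endoderm markers were 19672 to 19849 in culture 1, 13643 to 14628 in culture 2 and 3027 to 3800 in culture 3. Summed intensities of 10 mesenchymal and mural markers were 2128 to 2169 in culture 1, 3111 to 3267 in culture 2 and 999 to 1160 in culture 3, with DES, MCAM and CSPG4 below 40 on every array. The higher sum of culture 2 over culture 1 came mainly from COL3A1, at 1368 and 1272 against 235 and 242. Those of 6 neural progenitor markers were 1624 to 1720, 1814 to 1822 and 3643 to 4203, with SOX1 and PAX3 below 40 on every array. Those of 8 neuronal markers were 4976 to 4999, 2807 to 3309 and 5872 to 7971, with none below 40 on every array. Of 10 endothelial markers, 7 lay below 40 on every array, PECAM1, CDH5 and KDR among them, while VWF reached 40 on 4 arrays (highest 89.0), TEK on 3 (highest 95.7) and CLDN5 on 2 (highest 51.3).

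Of the 10 Notch genes, 8 were bright enough to be tested, meaning that 3 or more of the 6 arrays gave an intensity of 40 or above, as were 12653 of all genes. DLL4 and NOTCH2 were not. The cultures differed in the Notch genes. For DNER, HEY1 and, narrowly, HES1 and DLL1 the means of the H1 cultures lay farther from each other than either lay from HUES8. The share of all genes for which this held was not counted. Culture 2 carried 5.32-fold more DNER, 2.04-fold more HEY1 and 1.53-fold more NOTCH3 than culture 1, and 1.85-fold less HES1. Folds and differences here are on the scale of log2(intensity + 20), which understates changes of dim genes, and adjusted p-values are limma's with Benjamini-Hochberg adjustment over all 12653 genes. A gene was called at an adjusted p under 0.05. Between the H1 cultures 4 of 8 Notch genes were called (3 higher in culture 2, 1 lower), where 14.1% of all tested genes were called (5.66% higher, 8.43% lower). Between culture 3 and culture 1 the count was 2 of 8 (1 higher, 1 lower), against 23.7% of all genes (10.8% higher, 12.8% lower), which is close to that background. Between culture 3 and culture 2 it was 4 of 8 (1 higher in culture 3, 3 lower), against 23.4% (11.8% higher, 11.6% lower), or 2 higher and 3 lower with the arrays scaled to a common median (19.5% and 8.25% of all genes). All 3 counts moved when single samples were left out. Those against culture 1 were lowest without a sample of culture 1 and highest without a sample of culture 2. The count for culture 3 minus 2 was lowest without a sample of culture 3. The same held for the counts over all 12653 genes, so these moves were not particular to the Notch genes. Both sets of counts are given at the end. Without the intensity filter NOTCH3, HEY1, HES6 and, between the H1 cultures, HES1 lost their calls (adjusted p from 0.0528 to 0.114). These 3 contrasts share arrays and are therefore not separate results. Both arrays of a culture also share their cells, so the p-values measure only the spread between the live and processed sample of a culture, not that between cultures of a line. In whole cultures, fewer cells of a type and less RNA per cell cannot be told apart.

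**Figure D1:**
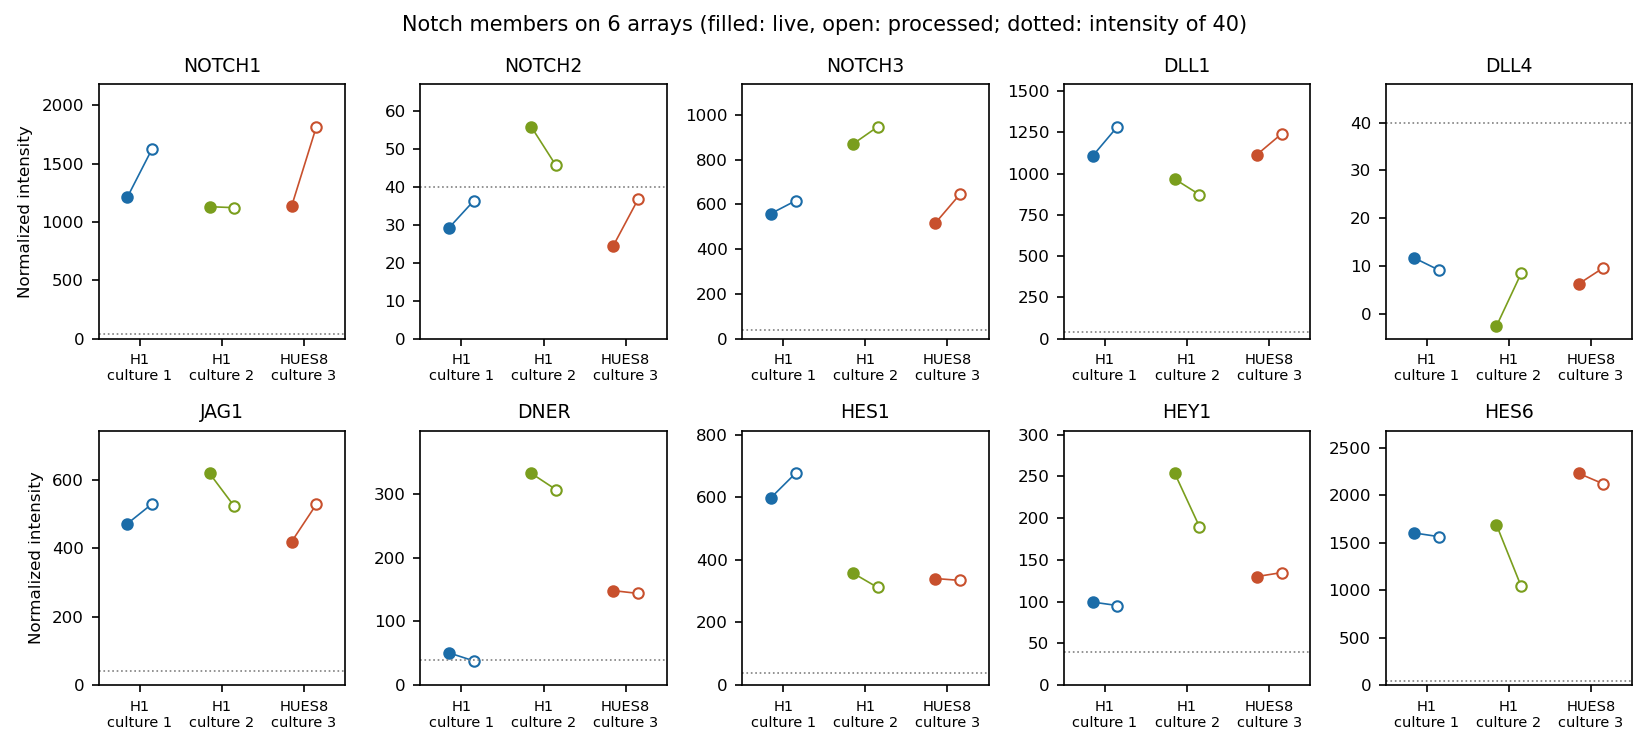
Normalized intensity (vertical axes, each on its own linear scale) of the 10 Notch genes in the live (filled) and processed (open) sample of H1 cultures 1 and 2 and HUES8 culture 3, with the line at an intensity of 40. Culture 2 stands highest for DNER, HEY1 and NOTCH3, culture 1 for HES1 and culture 3 for HES6, while DLL4 lies below 40 on every array.

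Among the receptors, NOTCH1 was bright in every sample, with intensities in the live and processed samples of 1213 and 1625 in culture 1, 1130.3 and 1122 in culture 2 and 1136 and 1815 in culture 3. Culture 2 lay below the 4 other samples, the live sample of culture 3 only narrowly, and cultures 1 and 3 overlapped. Its differences between cultures were -0.31 ± 0.19 (SE, log2 scale) for culture 2 minus 1, 0.03 ± 0.19 for culture 3 minus 1 and 0.35 ± 0.19 for culture 3 minus 2, with adjusted p-values of 0.290, 0.924 and 0.223. Without the live sample of culture 2 the first and the last were called (-0.59, adjusted p = 0.0316, and 0.62, adjusted p = 0.0199).

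NOTCH3, which in mouse and human is a main receptor of vascular smooth muscle and pericytes, read 559 and 616 in culture 1, 870.3 and 947 in culture 2 and 516 and 644 in culture 3. Both samples of culture 2 lay above the 4 others, and cultures 1 and 3 overlapped. Culture 2 exceeded culture 1 by 0.61 ± 0.16 (adjusted p = 0.0374) and culture 3 fell below culture 2 by -0.64 ± 0.16 (adjusted p = 0.0224), while culture 3 minus 1 was -0.02 ± 0.16 (adjusted p = 0.930). The call between the H1 cultures was lost without the live or the processed sample of culture 1 (0.65 and 0.57, adjusted p = 0.230 and 0.284) and with the arrays scaled to a common median (0.53, adjusted p = 0.0526), and that between cultures 3 and 2 without the live or the processed sample of culture 3 (-0.55 and -0.73, adjusted p = 0.208 and 0.0651). Of the 6 tested mesenchymal and mural markers, 3 were higher and 3 lower in culture 2 than in culture 1, with COL3A1 called, and all 6 were lower in culture 3 than in culture 2, with 5 called. The part of those cells in the NOTCH3 differences was not tested.

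NOTCH2, the receptor that mouse and human bile ducts depend on, was near the limit of the array. It read 29.2 and 36.3 in culture 1, 55.8 and 45.6 in culture 2 and 24.5 and 36.7 in culture 3, so that only the 2 samples of culture 2 reached 40. NOTCH2NL, a near copy of NOTCH2 with its own value in the table, read 43.5 and 52.4 in culture 2 and at most 39.4 elsewhere, and cross-hybridization between the near copies was not tested. With cultures 1 and 3 below 40 on both arrays and set to 40, culture 2 read at least 1.18-fold higher than either, a bound without an error. No order of cultures 1 and 3 can be read. NOTCH2 was called in neither contrast when tested without the filter. Culture 2 minus 1 was 0.42 (limma adjusted p = 0.261) and culture 3 minus 2 was -0.49 (limma adjusted p = 0.195).

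Among the ligands, DLL1, the Delta ligand of the mouse endocrine precursors, read 1106 and 1283 in culture 1, 966 and 872 in culture 2 and 1114 and 1240.0 in culture 3. Culture 2 lay below the 4 other samples, and cultures 1 and 3 overlapped. The differences were -0.37 ± 0.17 for culture 2 minus 1 (adjusted p = 0.166), -0.02 ± 0.17 for culture 3 minus 1 (adjusted p = 0.949) and 0.35 ± 0.17 for culture 3 minus 2 (adjusted p = 0.164). None was called as analysed here, but without the live sample of culture 2 the first was -0.53 (adjusted p = 0.0446) and the last 0.51 (adjusted p = 0.0440), and scaling the arrays to a common median gave 0.50 (adjusted p = 0.0459) for the last.

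JAG1, the Jagged ligand whose loss in humans causes Alagille syndrome, varied least between the cultures. It read 472 and 529 in culture 1, 619 and 523 in culture 2 and 419 and 528 in culture 3, and all 3 cultures overlapped. Its differences of 0.18 ± 0.18, -0.08 ± 0.18 and -0.26 ± 0.18, in the same order, had adjusted p-values of 0.526, 0.776 and 0.324, and the last became -0.50 (adjusted p = 0.0499) without the processed sample of culture 2. DLL4, the Delta ligand of arterial endothelium and sprouting vessels, stayed between -2.61 and 11.6 on the 6 arrays, after background subtraction, and no order of the cultures can be read from it. Of the endothelial markers, PECAM1, CDH5 and KDR also lay below 40 on every array, and VWF, TEK and CLDN5 reached it on some.

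DNER, a membrane protein with EGF-like repeats that binds Notch in mouse cerebellum and is best known from neurons, separated the cultures most. It read 50.5 and 37.9 in culture 1, 333 and 307 in culture 2 and 148 and 144 in culture 3. No culture overlapped another, the processed sample of culture 1 lay under 40, and HUES8 stood between the H1 cultures. How many of all genes had 3 cultures without overlap was not counted. Culture 2 exceeded culture 1 by 2.41 ± 0.16 (adjusted p = 3.06e-04), culture 3 exceeded culture 1 by 1.38 ± 0.16, or 2.60-fold (adjusted p = 5.29e-04), and culture 3 was below culture 2 by -1.03 ± 0.16, or 2.04-fold (adjusted p = 0.00281). All of these calls held under every alternative in which DNER was tested, with adjusted p-values of at most 0.0231. Of the 7 tested neuronal markers, 2 (NEFM and NEFL) were higher and 5 lower in culture 2 than in culture 1, with TUBB3 called lower, and all 7 were higher in culture 3 than in culture 2, with 5 called. The part of neurons in the DNER differences was not tested.

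**Figure D2:**
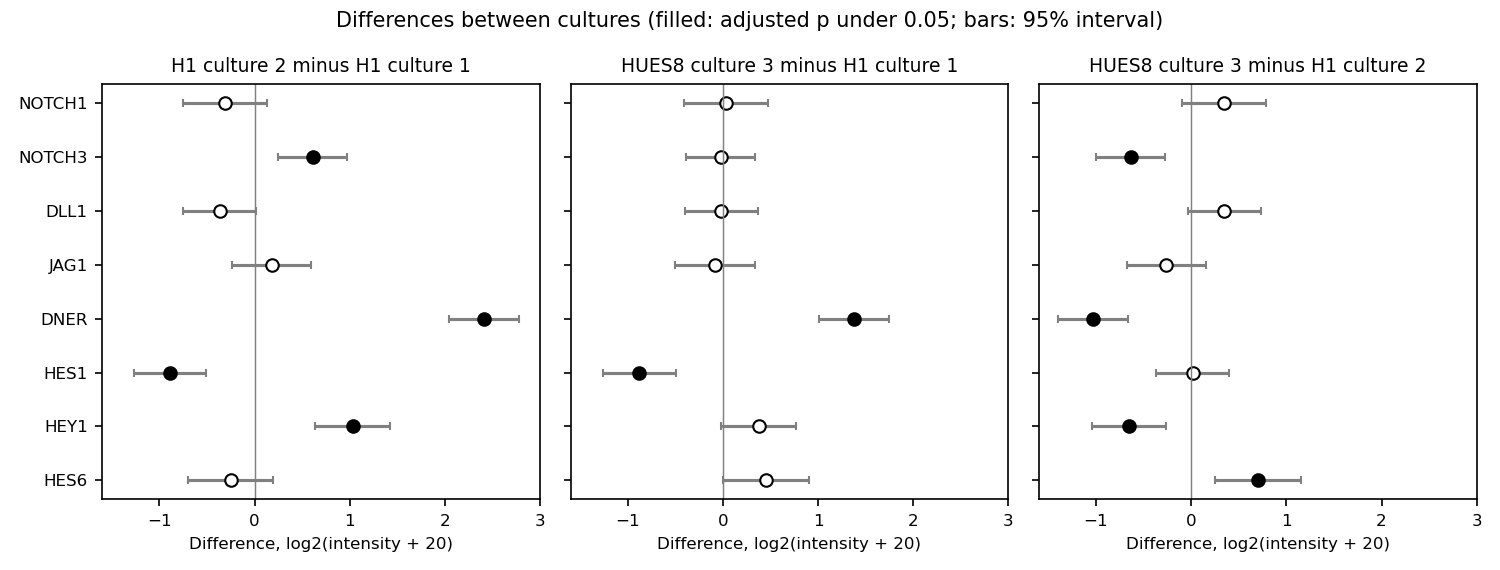
Differences between cultures (horizontal axes, log2(intensity + 20) scale) for the 8 tested Notch genes, with 95% intervals from limma and filled points for adjusted p under 0.05. DNER is called in all 3 panels, from -1.03 to 2.41, and NOTCH1, DLL1 and JAG1 in none.

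Among the targets, HES1, the repressor that holds back Neurog3 in mouse, was highest in culture 1. It read 599 and 677 there, 358 and 312 in culture 2 and 341 and 335 in culture 3. Both samples of culture 1 lay above the 4 others, and cultures 2 and 3 overlapped. Culture 2 fell below culture 1 by -0.89 ± 0.17 (adjusted p = 0.0123) and culture 3 by -0.88 ± 0.17, or 1.84-fold (adjusted p = 0.00647), while culture 3 minus 2 was 0.01 ± 0.17 (adjusted p = 0.959). Both calls were lost without the processed sample of culture 1 (-0.75 and -0.74, adjusted p = 0.143 and 0.106).

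HEY1, a target that acts in vessels and in mesenchyme of the mouse embryo, took the opposite order between the H1 cultures. It read 99.4 and 95.3 in culture 1, 254 and 190.0 in culture 2 and 130.0 and 135 in culture 3, so that no culture overlapped another and HUES8 again stood in between. Culture 2 exceeded culture 1 by 1.03 ± 0.17 (adjusted p = 0.00769), culture 3 was below culture 2 by -0.65 ± 0.17 (adjusted p = 0.0269), and culture 3 minus 1 was 0.38 ± 0.17 (adjusted p = 0.147). The first call was lost without the live sample of culture 1 (0.97, adjusted p = 0.0596) and the next without the live sample of culture 2 or of culture 3 (-0.46 and -0.52, adjusted p = 0.0657 and 0.233). Culture 3 minus 1 was called without either sample of culture 2 (0.38, adjusted p = 0.0401). The part of the mesenchymal and mural cells, whose markers are given beside NOTCH3, was not tested.

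HES6, which in mouse binds HES1 and relieves its repression and is found in neuronal precursors, was the gene whose HUES8 samples both exceeded every H1 sample. It read 1602 and 1563 in culture 1, 1687 and 1041 in culture 2 and 2231 and 2119.9 in culture 3. The H1 cultures overlapped, because the processed sample of culture 2 was low. Culture 3 exceeded culture 2 by 0.71 ± 0.20 (adjusted p = 0.0332), a call lost without the processed sample of culture 2 or of culture 3 (0.39 and 0.56, adjusted p = 0.118 and 0.185). The other contrasts were -0.25 ± 0.20 for culture 2 minus 1 (adjusted p = 0.407) and 0.45 ± 0.20 for culture 3 minus 1 (adjusted p = 0.130). Without the live sample of culture 2 these became -0.57 (adjusted p = 0.0334) and 0.45 (adjusted p = 0.0158), the latter also without its processed sample.

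RBPJ is known to bind DNA at sites that commonly hold the letters TGGGAA. Sites without these letters were not searched, and whether RBPJ binds at any match was not tested. Promoter windows of 250 bases before and 50 after the gene start were available from RefSeq (GRCh38.p14) for 7 of the 10 Notch genes, not for DLL1, DNER and HEY1. TGGGAA, searched on both strands, occurred in HES1 alone among these 7, at 84 to 79 and 70 to 65 bases before the start. Over all 27305 promoters of that length 24.3% held TGGGAA at least once and 3.81% at least 2 times. HES4, a target found in humans and not in mice, had 1 match, and HES5, a target best known from neural progenitors, had 2. Among the other pathway genes searched, the targets HEY2 and HEYL also had 2 each, LFNG had 1 and the target NRARP had 0. DLL3 and MFNG had no window available. Parts of the promoters of HES1, HES4 and HES5 are shown because these targets are among those compared next. Each is written 5′ to 3′ on the strand of its gene, chr3:194136028-194136147 (plus strand) for HES1, chr1:1000128-1000247 (minus strand) for HES4 and chr1:2530314-2530513 (minus strand) for HES5, with the matches in capitals, and TTCCCA is the match read on the other strand.
HES1: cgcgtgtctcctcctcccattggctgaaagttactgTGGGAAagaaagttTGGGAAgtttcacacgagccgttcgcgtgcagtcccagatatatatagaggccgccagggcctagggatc
HES4: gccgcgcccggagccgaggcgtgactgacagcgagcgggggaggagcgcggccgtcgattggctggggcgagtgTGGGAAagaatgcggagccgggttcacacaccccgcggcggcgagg
HES5: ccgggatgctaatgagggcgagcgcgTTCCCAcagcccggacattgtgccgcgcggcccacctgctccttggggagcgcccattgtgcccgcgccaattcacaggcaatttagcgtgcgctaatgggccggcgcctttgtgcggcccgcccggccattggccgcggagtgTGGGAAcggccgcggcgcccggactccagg

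The next question was whether HUES8 differed from H1 as a line. Here the mean of the live and processed values of each culture was used, so that 1 HUES8 culture stood against 2 H1 cultures. A gene's own spread came from the H1 cultures with 1 residual degree of freedom, and HUES8 was assumed to vary like them. limma drew that spread toward the spread of all genes, so the SEs and intervals rest largely on other genes. None of the 8 Notch genes was called, with limma calling 1.73% of all genes, and none reached an unadjusted p under 0.05. The differences, HUES8 minus H1, ran from -0.43 ± 0.39 for HES1 (adjusted p = 0.837) to 0.58 ± 0.35 for HES6 (95% interval -0.16 to 1.32, adjusted p = 0.649). DNER was 0.17 ± 0.63 (95% interval -1.16 to 1.50), the widest interval of the 8, since the H1 cultures lay so far apart. Both HUES8 samples lay above every H1 sample for 1 of 8 genes, HES6, and below for 0 of 8, where 18.8% and 18.5% of all genes did so. The 95% intervals leave room for differences of over 1 log2 unit in either direction for DNER and, in 1 direction only, for HES6, NOTCH3, HES1 and HEY1.

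The other genes of the pathway numbered 59 in the table, of which 43 were tested. HES5 was the 1 gene of these 43 called between HUES8 and H1, and it was called higher. It read 514 and 365 in culture 1, 371 and 267 in culture 2 and 1924 and 1458 in culture 3. Both HUES8 samples lay far above the 4 H1 samples, and the H1 cultures overlapped. HUES8 exceeded H1 by 2.12 ± 0.36, or 4.35-fold (adjusted p = 0.00431), and the call held under the alternatives other than testing all genes without a filter (adjusted p = 0.613). Summed neural progenitor markers were also higher in culture 3, 3643 to 4203 against 1624 to 1822 in the H1 samples, with SOX2, NES and FABP7 measured on every array and SOX1 and PAX3 below 40 on every array. The part of such cells in the HES5 difference was not tested.

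**Figure D3:**
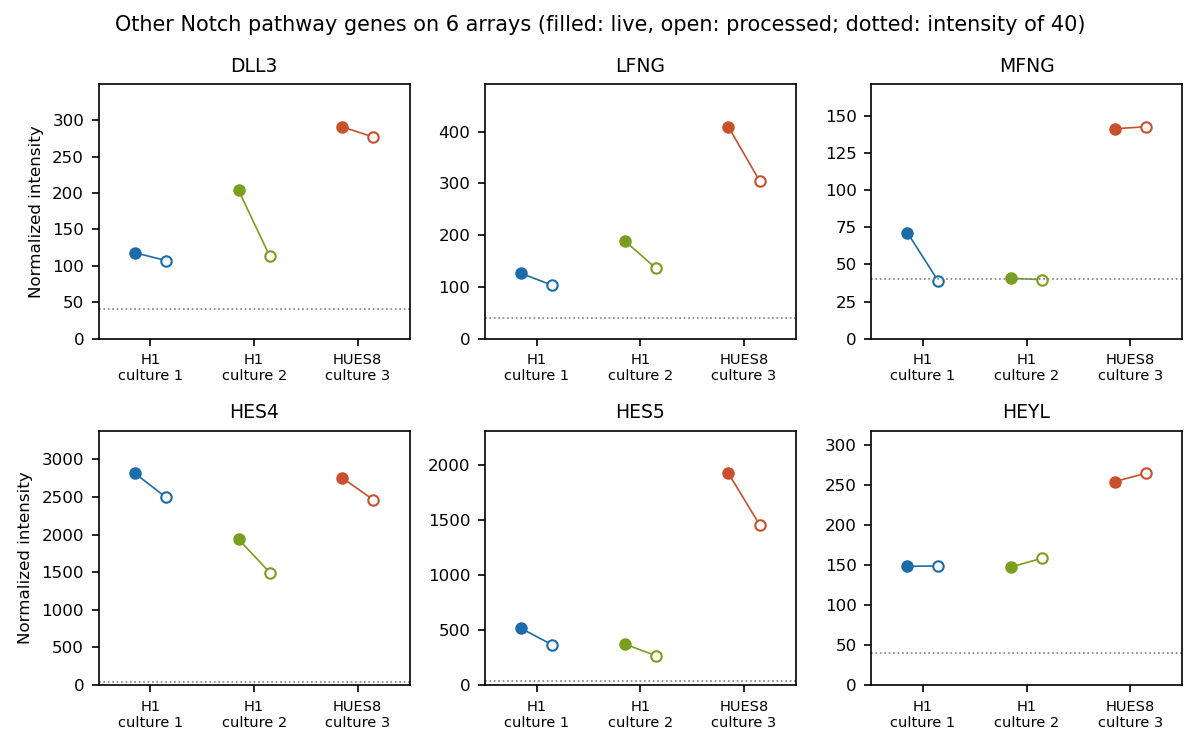
Normalized intensity (vertical axes, each on its own linear scale) of 6 other Notch pathway genes in live (filled) and processed (open) samples of the 3 cultures, with the line at an intensity of 40. HES5, LFNG, MFNG, DLL3 and HEYL stand highest in both HUES8 samples, while HES4 is lowest in culture 2.

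The remaining tested targets were HES4, HEY2 and HEYL, and HES3, HES7 and NRARP lay below 40 on every array. HEY2, a relative of HEY1, stood between 59.8 and 112 and was called in no contrast. HEYL read 148 and 149 in culture 1, 147 and 159 in culture 2 and 254 and 265 in culture 3, and the HUES8 samples stood above the overlapping H1 samples. HUES8 exceeded culture 1 by 0.73 ± 0.16 (adjusted p = 0.0114) and culture 2 by 0.69 ± 0.16 (adjusted p = 0.0148). The first call was lost without any 1 of the samples of cultures 1 and 3 (adjusted p up to 0.130) and the other without either sample of culture 3 (up to 0.0862). HES4, in contrast, was lower in culture 2, at 1939 and 1496, than in culture 1 (2814 and 2495) and culture 3 (2755 and 2462), and cultures 1 and 3 did not differ beyond their spread (-0.02 ± 0.16, adjusted p = 0.931). Its fall from culture 1 to culture 2 (-0.63 ± 0.16, adjusted p = 0.0350) was lost with quantile normalization and without either sample of culture 1 (adjusted p up to 0.272), and its rise from culture 2 to culture 3 (0.61 ± 0.16, adjusted p = 0.0271) without either sample of culture 3 (up to 0.195). The targets thus took different orders, with HES1 highest in culture 1, HEY1 in culture 2, and HES5 and HEYL in culture 3.

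LFNG and MFNG encode Fringe glycosyltransferases, which add sugar to Notch receptors and change which ligands they answer to. LFNG read 126 and 103 in culture 1, 189 and 136 in culture 2 and 409 and 305 in culture 3. MFNG read 71.5 and 38.6, 40.7 and 39.8, and 142 and 143. For both, the HUES8 samples lay above all H1 samples. The differences, HUES8 minus H1, were 1.26 ± 0.36 for LFNG (adjusted p = 0.0954) and 1.29 ± 0.35 for MFNG (adjusted p = 0.0796) and missed the threshold, which LFNG passed with the culture as a random block over all 6 arrays (adjusted p = 0.0486). Against the single cultures both were called, LFNG by 1.48 ± 0.16 over culture 1 (adjusted p = 3.39e-04) and 1.05 ± 0.16 over culture 2 (adjusted p = 0.00242), and MFNG by 1.15 ± 0.20 (adjusted p = 0.00412) and 1.43 ± 0.20 (adjusted p = 0.00154). The call of MFNG over culture 1 was lost without the processed sample of culture 1 (0.83, adjusted p = 0.0644). DLL3, a Delta relative that in mouse acts inside the cell and dampens signalling, read 118 and 107, 204 and 113, and 291 and 277, again highest in HUES8, at 1.01 ± 0.35 over H1 (adjusted p = 0.226).

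**Figure D4:**
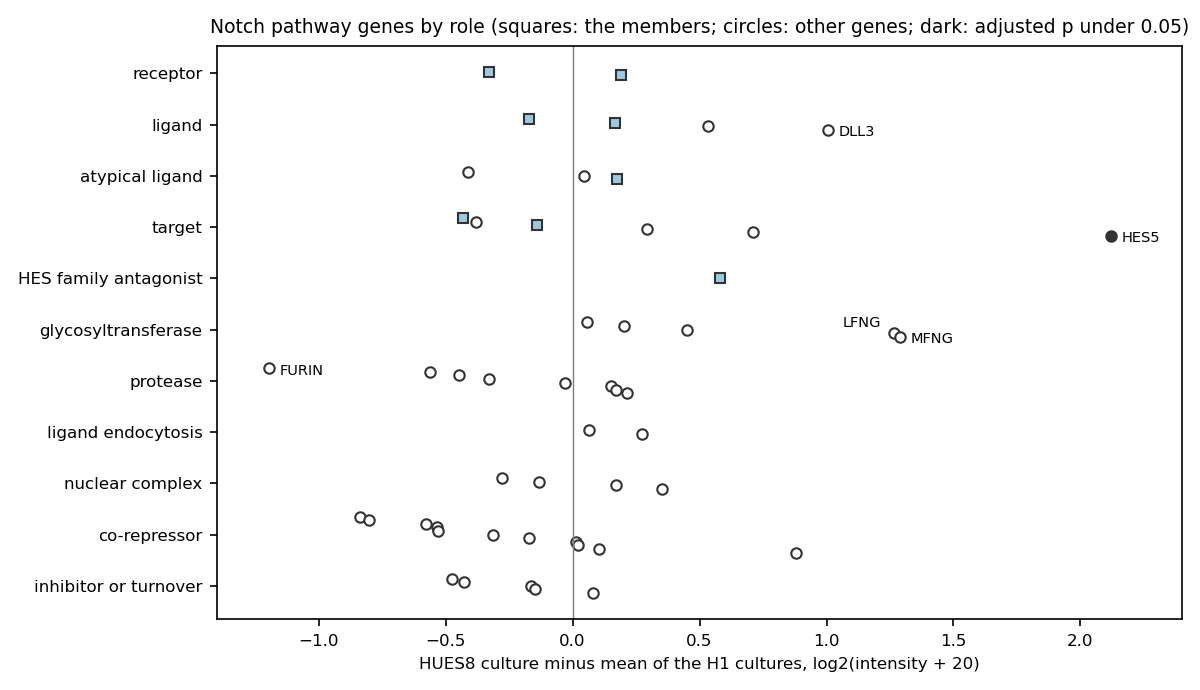
HUES8 culture minus the mean of the H1 cultures (horizontal axis, log2(intensity + 20) scale) for the 8 tested Notch genes (squares) and 43 other pathway genes (circles) by role, the dark point being called. HES5 at 2.12 is the called gene, the 8 squares lie between -0.43 and 0.58, and FURIN is lowest at -1.19.

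By role, all 5 tested glycosyltransferases and both other ligands, DLL3 and JAG2, had positive differences in HUES8 against H1. So had both ligand endocytosis genes and 3 of 4 other targets. Negative ones were found for 7 of 11 co-repressors, 5 of 8 proteases and 4 of 5 inhibitor or turnover genes. The atypical ligands and the nuclear complex were evenly divided. Over all 12653 genes 6551 were positive and 6102 negative. Of these pathway genes only HES5 was called, and no test of a role was run. The medians were 0.45 for the glycosyltransferases, -0.31 for the co-repressors and 0.02 both over the 43 genes and over all genes tested. The lowest value was that of FURIN, a protease that processes Notch receptors on their way to the surface, at -1.19 ± 0.35 (adjusted p = 0.103). Counted against the single cultures, 1 of the 43 genes was called higher and 4 lower in culture 2 than in culture 1, where 5.66% and 8.43% of all genes were. Culture 3 had 7 higher and 7 lower than culture 1 (10.8% and 12.8% of all genes). It had 7 higher and 5 lower than culture 2 (11.8% and 11.6%), or 10 higher and 1 lower under that median scaling (19.5% and 8.25%). With single samples left out, the calls among the 43 moved widely in each contrast. They were fewest without a sample of culture 1, or of culture 3 for culture 3 minus 2, and most without a sample of culture 2. The same held for the calls among all genes, so these moves were not particular to the pathway. The ends of these comparisons were TLE4 (1.04) and ADAM10 (0.49, adjusted p = 0.227), and DLK1 (-1.36) and TLE2 (-0.69), for culture 2 minus 1. For culture 3 minus 1 they were HES5 (1.90) and LFNG, and TLE2 (-1.15) and AES (-1.13), and for culture 3 minus 2 HES5 (2.34) and MFNG, and FURIN (-1.26) and NUMB (-0.60). DLK1 is a non-canonical ligand abundant in endocrine cells, and NUMB is an inhibitor of Notch. TLE proteins are co-repressors of the HES family, and AES is a short relative of them that was counted here with the co-repressors. The call of TLE4 between the H1 cultures was lost without the live sample of culture 1 (0.81, adjusted p = 0.124) and those of TLE2 there without either sample of culture 1 or the processed sample of culture 2 (adjusted p up to 0.224).

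Genes on the other side of lateral inhibition, the endocrine precursor factors, also differed between cultures. NEUROG3 read 88.0 and 45.5 in culture 1, 24.5 and 27.6 in culture 2 and 25.3 and 24.9 in culture 3, so that it reached 40 only in culture 1, where HES1 was also highest, and it was too dim to be tested. PAX4, in mouse an early target of NEUROG3, read 138 and 155, 49.6 and 58.7, and 30.1 and 26.7, with no overlap between cultures. It fell from culture 1 to culture 2 by -1.17 ± 0.16 (adjusted p = 0.00376) and, with both samples of culture 3 under 40, was at least 2.78-fold higher in culture 1 than in culture 3 (adjusted p = 1.61e-04). PAX4, NKX2-2, NEUROD1 and INSM1 were lower in culture 2 than in culture 1. In culture 3, PAX4, NKX2-2 and NEUROD1 were lower than in culture 1 and INSM1 was higher. The calls of NEUROD1 and INSM1 between the H1 cultures were lost without either sample of culture 1 (adjusted p up to 0.209 and 0.336). Those of INSM1 and NEUROD1 between cultures 3 and 1 were lost without 1 or more of the single samples of these cultures (adjusted p up to 0.219 and 0.147). MYT1 was called in no contrast, with differences from -0.28 to 0.25.

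INSM1, a zinc finger factor of endocrine and neuronal precursors, read 878 and 713 in culture 1, 554 and 469 in culture 2 and 1282 and 1219 in culture 3. No culture overlapped another, and HUES8 was highest. HUES8 exceeded culture 2 by 1.26 ± 0.16 (adjusted p = 0.00102). Against both H1 cultures the difference of 0.95 ± 0.37 was not called (adjusted p = 0.307).

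Finally, the live and processed samples were compared, the question for which the arrays were made. None of the 8 Notch genes was called, nor was any of the 12653 genes tested (0%). At an unadjusted p under 0.05 limma had 0 of the 8 and 1221 of all genes. NOTCH1 came closest, at 0.36 ± 0.34 (SD, n = 3 pairs) for processed minus live (limma, adjusted p = 0.521). The H1 pairs gave 0.42 and -0.01 and HUES8 gave 0.67, and without pair 2 it was called at 0.54 (adjusted p = 0.0367). HES6 was at the other end with -0.26 ± 0.37 (adjusted p = 0.608), most of it from pair 2 (-0.69), and without pair 2 its mean was -0.05. NOTCH3 was higher in the processed sample of all 3 pairs (0.14, 0.12 and 0.31) and DNER and HES6 lower in all 3, so 1 of 8 and 2 of 8, where 13.7% and 19.8% of all genes did so. NOTCH1, DLL1, JAG1, HES1 and HEY1 changed sign between pairs. The range of the 3 culture means was larger than the largest live to processed difference for 6 of 8 Notch genes, all but NOTCH1 and JAG1, and for 64.4% of all genes, a share near that of the Notch genes. HES6 passed narrowly (0.71 against 0.69).

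**Figure D5:**
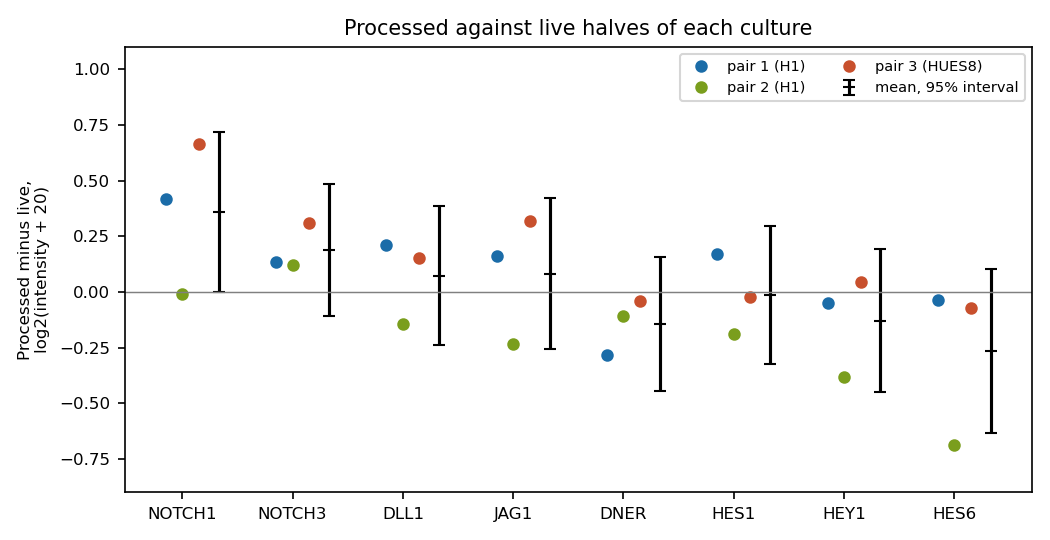
Processed minus live (vertical axis, log2(intensity + 20) scale) in each of the 3 pairs (points) for the 8 tested Notch genes, with the mean and its 95% interval from limma. The pairs run from -0.69 for HES6 to 0.67 for NOTCH1, and no gene is called.

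Of the 43 other pathway genes limma called 0 between live and processed samples, and 5 had an unadjusted p under 0.05, as had 9.65% of all genes. The ends were POFUT1, which adds fucose to Notch receptors (0.53 ± 0.21, adjusted p = 0.490), and ADAM17 (0.45 ± 0.14, adjusted p = 0.421), and HES5 (-0.44 ± 0.13, adjusted p = 0.394) and NOV (-0.40 ± 0.16, adjusted p = 0.494). Whether the effect of processing itself differed between HUES8 and H1 was tested on the pair differences, again with 1 residual degree of freedom. In this fit limma gave all 8 Notch genes the same SE, 0.38. That SE is a spread pooled over genes and not the spread of each gene's own pairs. None of the 8 Notch genes was called, and 0 had an unadjusted p under 0.05, with 0.261% of all genes called. Their values ran from -0.02 ± 0.38 for HES1 to 0.46 ± 0.38 for NOTCH1, each with an adjusted p of 1.00. Among the other pathway genes, POFUT1 (1.00) and EP300 (0.72) were highest and ADAM10 (-1.10) and PSENEN (-0.84) lowest, none called and 3 of the 43 at an unadjusted p under 0.05 (4.43% of all genes), with adjusted p-values from 0.394 for ADAM10 upward.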

How the data were processed

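In GenomeStudio the authors subtracted background from the HT-12 signals and normalized the arrays by rank-invariant genes. Their deposited table gives linear intensity, 1 value per gene symbol and array. A further deposited table has 6 signal columns named in a way that no label resolves and was not used here. How probes of a gene were combined per symbol could hide differences between transcripts.

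Values below 0 (4.37% of the table) were replaced by 0, and log2 was taken after adding the offset of 20 that the methods give. Genes were tested where 3 or more of 6 arrays reached 40 (12653, 40.3%). Contrasts were fitted with limma 3.58.1 (lmFit and eBayes) in R 4.3.3, with statmod 1.5.0 for the random block, and adjusted by Benjamini-Hochberg. Cultures were compared in an additive fit of differentiation and processing (2 residual degrees of freedom), live and processed samples with differentiation as a block, and lines on culture means and on pair differences (1 residual degree of freedom). With 3 pairs, an exact two-sided test of a single gene cannot go below p = 0.25. The number of arrays limits the precision.

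The labels tie each live and processed sample to a shared differentiation, which pairs them. Across genes, samples of a pair deviated from their group means together (correlations of 0.79, 0.62 and 0.81), and other combinations gave values below 0. The script was tested on simulated data. Promoters, from RefSeq (GRCh38.p14), were searched in Python 3.11.15.

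The members and gene lists were chosen with earlier results of these data known. Named genes were the 10 Notch genes, any other pathway gene called between lines and the 2 highest and 2 lowest in each other comparison, and the tested precursor factors, 1 of which is not reported here. HES4, HEY2, HEYL, LFNG, MFNG, DLL3, JAG2, FURIN, NOTCH2NL and NEUROG3, where outside this rule, were named after their values had been seen. Alternatives covered the offset, 2 normalizations, 2 filters, the block, the methods' t-test, live or processed samples alone, and leaving out samples.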

Additional observations from a re-analysis of the deposited data

How the results depend on the processing

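Of 949 values recomputed for 92 gene differences, 782 kept their sign and their side of the threshold, 128 lost a call, 12 gained one and 27 changed sign, none of these a called value. Scaling the arrays to a common median moved the median of all genes from 0.03 to 0.16 for culture 3 minus 2. Under it, processed minus live turned to 0.096 for HES1, culture 3 minus 1 to 0.038 for NOTCH3 and 0.045 for DLL1, and the processing effect to -0.014 for DLL1; quantile normalization gave 0.010 for NOTCH3 and 0.030 for DLL1 in culture 3 minus 1. HUES8 minus H1 was -0.042 for NOTCH1 in live samples and 0.0052 for JAG1 in processed samples. Leaving out samples gave, for processed minus live, -0.11 to 0.074 for HES1 and -0.037 to 0.24 for JAG1; for HUES8 minus H1, -1.03 to 1.38 for DNER, -0.88 to 0.014 for HES1, -0.019 to 0.35 for DLL1 and -0.65 to 0.38 for HEY1; for culture 2 minus 1, -0.058 to 0.42 for JAG1 and -0.57 to 0.064 for HES6; for culture 3 minus 1, -0.20 to 0.26 for NOTCH1, -0.12 to 0.067 for NOTCH3, -0.12 to 0.085 for DLL1 and -0.26 to 0.095 for JAG1; for culture 3 minus 2, -0.12 to 0.14 for HES1; and for the processing effect, -0.20 to 0.16 for HES1, -0.059 to 0.30 for DLL1 and -0.038 to 0.61 for HES6.

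Counts of called genes moved more. For HUES8 minus H1 they went from 219 to 142 with an offset of 50, 0 without the filter (0 of the 8 Notch genes either way), 80 with 40 required on all 6 arrays, and 111 and 128 in live and processed samples alone. Without the filter, culture 2 minus 1 had 453 genes called in place of 1783, culture 3 minus 1 1424 in place of 2993, culture 3 minus 2 1491 in place of 2956, and the processing effect 0 in place of 33, which was 9 with an offset of 50 and 0 with median scaling. Called Notch genes without the filter were 1 for culture 2 minus 1 and 1 for culture 3 minus 2, DNER both times; the filter on all 6 arrays removed DNER and left 1 for culture 3 minus 1. The unfiltered fit adds dim genes; the cause was not tested. Leaving out samples gave 12 to 688 genes and 0 to 1 Notch genes for processed minus live, 528 to 3266 and 2 to 7 for culture 2 minus 1, 1221 to 5327 and 1 to 4 for culture 3 minus 1, and 1891 to 4088 and 2 to 5 for culture 3 minus 2. The lowest and highest gene counts came without pairs 3 and 2 for processed minus live, without the live samples of cultures 1 and 2 for culture 2 minus 1, without the live sample of culture 1 and either of culture 2 for culture 3 minus 1, and without the live sample of culture 3 and the processed sample of culture 2 for culture 3 minus 2. Without the replicate block, as with it, 0 genes and 0 Notch genes were called (192 at an unadjusted p under 0.05), and the methods' t-test called 0 (320 unadjusted). With a sample left out the lone sample of a culture is assumed to vary like the others, and without an H1 culture HUES8 minus H1 is a value with no test. NOTCH2 and DLL4 were under an intensity of 40 on 4 and 6 of the 6 arrays and were tested only without the filter. Differences that rest on single arrays under 40, such as those of DNER and FURIN, are less certain in size.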

Other observations

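RBPJ, MAML1, SNW1 and EP300, the tested genes of the nuclear complex, were called by limma in none of the comparisons. Of all genes 0% to 23.7% were called, the most for culture 3 minus 1. In that contrast 1 of these 4 had an unadjusted limma p under 0.05, as had 4786 of all 12653 genes. Counts over 4 genes are too small to be set apart from these shares. Among the proteases, the γ-secretase subunit gene APH1B was lower in HUES8 than in culture 1 (-0.54 ± 0.16, limma adjusted p = 0.0389) and in culture 2 (-0.58 ± 0.16, adjusted p = 0.0292), calls that were lost with the arrays scaled to a common median, without the filter (the first also with an offset of 50) and when either sample of culture 1 or of culture 3 was left out (adjusted p up to 0.290 and 0.201). FURIN read 108 and 101 in culture 1, 102 and 134 in culture 2 and 30.9 and 44.3 in culture 3, so that HUES8 lay below all H1 samples and 1 of its 2 arrays under 40. It was called against both H1 cultures (-1.12 ± 0.18, adjusted p = 0.00241, and -1.26 ± 0.18, adjusted p = 0.00155) and under all alternatives in which it was tested there.

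Genes of the Groucho family, whose TLE co-repressors HES proteins recruit to DNA, moved in different directions. TLE4 read 184 and 246 in culture 1, 464 and 455 in culture 2 and 628 and 565 in culture 3, and was higher in HUES8 than in culture 1 by 1.40 ± 0.18 (adjusted p = 9.17e-04). TLE2 read 343 and 367, 223 and 201, and 128 and 173, and was lower by -1.15 ± 0.18 (adjusted p = 0.00237). AES, a short relative without the WD repeats, read 507 and 508, 376 and 290, and 222 and 219, and was lower by -1.13 ± 0.17 (adjusted p = 0.00202). No culture overlapped another for any of these 3 genes, and the share of all genes without such overlap was not counted. The range of the 3 culture means exceeded the largest live to processed difference for 64.4% of all genes.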
